A study of Homo sapiens with 12 samples.

Results

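Early replicating regions (ERRs) were examined at 6 very long human genes, FHIT, WWOX, MACROD2, IMMP2L, LRP1B and AUTS2, which include genes of well-known common fragile sites. The genes were chosen by name, and regions were counted when they lay in the hg19 limits of a gene or within 200 kb of it. Of 18142 regions on chromosomes 1 to 22 and X in the 4 lists together, 5 met this rule. They comprised 1 of 3865 regions in shNT, 1 of 4643 in shNT + OHT, 2 of 4885 in shCDK12 and 1 of 4749 in shCDK12 + OHT. None of the 5 touched a gene body.

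The regions come from EdU-HU-seq of U2OS cells, a human osteosarcoma line, that express MycER, a chimera of Myc switched on by OHT (4-hydroxytamoxifen). All cells carried an shRNA induced with 1 µg/mL doxycycline. In shNT it had no target, and in shCDK12 it was aimed at CDK12, a kinase that acts on transcribing RNA polymerase II. In shNT + OHT and shCDK12 + OHT, OHT was given at 300 nM for 40 h. Every culture was arrested for 8 h in 100 ng/mL nocodazole, and mitotic cells were then released for 24 h into 25 µM EdU and 2 mM hydroxyurea. The labels give 12 samples, 3 in each of the 4 conditions, but each list holds 1 merged set of regions per condition, so no difference below has a replicate check. Where 4 values are given in a row with no names, they follow the order shNT, shNT + OHT, shCDK12, shCDK12 + OHT. Silencing of CDK12 cannot be checked in these lists, which hold labelled DNA and no RNA.

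EdU marks newly made DNA, and hydroxyurea stalls forks near the origins that fire first, so a listed region is taken as DNA made early in S phase. Common fragile sites are places where metaphase chromosomes show gaps and breaks after replication is slowed. Many of them lie over very long genes, replicate late and hold few origins, so that forks from the flanks have far to travel while a round of transcription takes many hours.

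The 6 genes together measured 8.67 Mb, from 0.90 Mb for IMMP2L to 2.06 Mb for MACROD2. FHIT (chromosome 3, 59735036 to 61237133, minus strand) encodes a diadenosine triphosphate hydrolase and lies over the fragile site of the short arm of its chromosome. WWOX (chromosome 16, 78133327 to 79246564, plus strand) encodes an oxidoreductase with WW domains. The other genes were MACROD2 (chromosome 20, 13976146 to 16033842, plus strand), which encodes an ADP-ribose hydrolase, and IMMP2L (chromosome 7, 110303106 to 111202573, minus strand), which encodes a subunit of a mitochondrial inner membrane peptidase. LRP1B (chromosome 2, 140988996 to 142889270, minus strand) encodes a receptor of the LDL receptor family, and AUTS2 (chromosome 7, 69063905 to 70257885, plus strand) encodes a nuclear protein of neuronal development. "Upstream" and "downstream" below follow the direction of transcription.

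The 250 bases before the gene start are shown for 3 genes to make their base composition visible. FHIT had the fewest and AUTS2 the most CpG dinucleotides of the 5 genes found in the RefSeq promoter table (GRCh38.p14), and WWOX had the ERR nearest to its start. LRP1B was not matched. The promoter table held 2 starts each for FHIT and MACROD2, of which 1 each was used, so their values hold for that start only. Each sequence is printed 5′ to 3′ on the strand of its gene, with CpG in capitals.
FHIT: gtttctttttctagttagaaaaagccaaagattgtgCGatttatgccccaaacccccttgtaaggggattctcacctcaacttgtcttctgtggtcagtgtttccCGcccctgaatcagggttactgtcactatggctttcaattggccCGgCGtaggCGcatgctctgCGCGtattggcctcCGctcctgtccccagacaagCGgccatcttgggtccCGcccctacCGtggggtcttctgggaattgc
WWOX: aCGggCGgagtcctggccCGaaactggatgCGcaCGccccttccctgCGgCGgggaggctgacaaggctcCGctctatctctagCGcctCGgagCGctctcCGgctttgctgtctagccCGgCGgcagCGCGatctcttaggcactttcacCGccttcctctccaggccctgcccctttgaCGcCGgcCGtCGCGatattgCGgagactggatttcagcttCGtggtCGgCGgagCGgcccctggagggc
AUTS2: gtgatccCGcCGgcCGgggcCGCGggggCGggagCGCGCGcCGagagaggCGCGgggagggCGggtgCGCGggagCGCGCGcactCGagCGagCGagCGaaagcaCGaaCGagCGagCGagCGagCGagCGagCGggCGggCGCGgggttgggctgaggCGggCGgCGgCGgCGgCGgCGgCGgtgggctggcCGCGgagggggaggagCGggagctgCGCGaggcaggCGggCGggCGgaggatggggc

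These windows held 11 CpG in FHIT, 27 in WWOX and 49 in AUTS2, against 29 in MACROD2 and 24 in IMMP2L, and the median of 35116 promoters was 11. GC content ran from 54.0% in FHIT to 82.8% in AUTS2, against a median of 58.0%. The Myc-binding E-box CACGTG, which reads the same on both strands, was in none of these 5 windows and in 6.34% of all promoters. No ERR lay over any of the 6 gene starts.

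Inside the gene bodies, 0% of the sequence was covered in each of the 4 lists, for every one of the 6 genes. Over the whole span of the same chromosomes the lists covered 15.3%, 16.9%, 15.6% and 18.9%. Empty windows of this size were common, however. Of all windows of 1.35 Mb, the median length of the 6 genes, 39.3%, 34.7%, 37.5% and 36.3% held no region. The share was lowest at the length of MACROD2 (25.5% in shNT + OHT to 29.9% in shNT) and highest at that of IMMP2L (42.9% to 47.6%). These shares include centromeres and other unsequenced parts. Without the longest region-free stretch of each chromosome, which was left out after seeing the data, they ran from 19.8% to 42.7%. That stretch was left out whatever it held, so this is not a correction for centromeres. It was the stretch of MACROD2 itself in shNT, shNT + OHT and shCDK12. On the chromosome of LRP1B it was the stretch of that gene in shNT, shCDK12 and shCDK12 + OHT. A list holds only regions that passed the caller, so a gene without a region may still hold signal below its threshold.

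The flanks, 200 kb on each side of each gene and 2.4 Mb in all, were covered to 0.0333% in shNT (Wilson 95% interval 0.00914 to 0.121, counting 400 bp windows), 0.0167% in shNT + OHT (0.00294 to 0.0944), 0.233% in shCDK12 (0.139 to 0.391) and 0.0167% in shCDK12 + OHT (0.00294 to 0.0944). In bases, this was 0.8, 0.4, 5.6 and 0.4 kb. The intervals describe counting over windows that are not independent. The flanks of FHIT, MACROD2, IMMP2L and AUTS2 held no region in any list, so that all flanking regions lay upstream of WWOX or downstream of LRP1B. Empty windows of that size were also common. Of all windows as long as a gene plus both flanks, 25.8% to 40.1% held no region in shNT, depending on the gene. In the other lists this was 21.7% to 35.4%, 24.3% to 38.2% and 23.6% to 37.0%.

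The region near WWOX was found in all 4 lists at the same place, about 144 kb upstream of the gene start (chromosome 16, from 77988801). It was 0.8 kb wide in shNT and 0.4 kb, a single window, in the others. It held 74 reads in shNT (exact Poisson 95% interval 58.1 to 92.9), 127 in shNT + OHT (105.9 to 151.1), 49 in shCDK12 (36.3 to 64.8) and 87 in shCDK12 + OHT (69.7 to 107.3). The counts were higher with OHT and lower with silencing, as were reads over the lists as a whole, which are not scaled to library size. Against the median change of 2096 places found once in every list, the log2 ratio of reads at this place differed by -0.67 (counting SE 0.21) for OHT in shNT cells and by -0.29 (SE 0.26) for OHT in shCDK12 cells. For silencing the same difference was -0.27 without OHT (SE 0.27) and 0.10 with OHT (SE 0.20). Of these 4 differences, the first alone was more than 2 counting SE from 0, and against the 56 such places at most 2 kb wide it was -0.38, within 2 SE. These ratios are of read counts not divided by width, and the shNT count covers 0.8 kb against 0.4 kb in the other lists. The differences against shNT, -0.67 and -0.27, thus set unlike widths against each other and do not give changes in density. Per kb the place held 92.5, 318, 122 and 218 reads, against list medians of 22.3, 52.4, 17.2 and 33.1. The region was among the narrowest of its list but dense, with more reads per kb than 95.8% of regions in shNT and 98.1% in shCDK12 + OHT. In this it was like the single windows upstream of AUTS2, at 96.6% to 98.6% over the 4 lists. Its score, the caller's value for a region, was 1002 in shNT, 1000 in both lists with OHT and 88.7 in shCDK12, where 9.23% of regions scored lower. A score of exactly 1000 was given to 51 of 51 single-window regions in shNT, 73 of 76 in shNT + OHT, 59 of 85 in shCDK12 and 49 of 49 in shCDK12 + OHT, with 55 to 5083 reads between them, and to no wider region. A score of 1000 and its rank are thus not graded by reads, and the score of 88.7 cannot be set against it.

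The region near LRP1B was found in shCDK12 alone. It lay 9.0 kb beyond the downstream end of the gene (chromosome 2, 140974801 to 140980000), was 5.2 kb wide and held 89 reads (Poisson interval 71.5 to 109.5). With 17.1 reads per kb it was close to the list's median of 17.2, but its score of 97.6 was above that of only 11.9% of regions. This score is below the lowest score of the shNT list (146), and the region was absent when all lists were held to that minimum or to the 3865 top-scoring regions. The WWOX region was then absent from shCDK12 as well, but from no other list. Seen against the 200 kb limit, the nearest regions just outside it were 306.5 kb upstream of MACROD2 in shCDK12 + OHT and 380.6 kb downstream of WWOX in shNT.

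Changes in these regions per comparison were therefore few. With OHT in shNT cells, 0 of 1 region was lost, against 1.60% of all shNT regions, and 0 of 1 was gained, against 21.3% of all shNT + OHT regions. Silencing without OHT lost 0 of 1 region (background 6.08%) and added 1 of the 2 regions of shCDK12, that near LRP1B (background 20.2%). With OHT in shCDK12 cells the same region, 1 of 2, was absent (background 6.47%), and 0 of 1 was gained (background 15.5%). Silencing with OHT lost 0 of 1 (background 11.5%) and gained 0 of 1 (background 14.8%). With 1 or 2 regions per list, these counts cannot be set apart from the background shares.

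How far from the gene the next region lay differed between the lists at some genes, most at LRP1B and MACROD2, but little at FHIT and WWOX. The stretch free of regions around each gene was therefore measured, from the last region before the gene to the first after it. It is shown in the plot of stretches by gene and list.

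**Figure D1:**
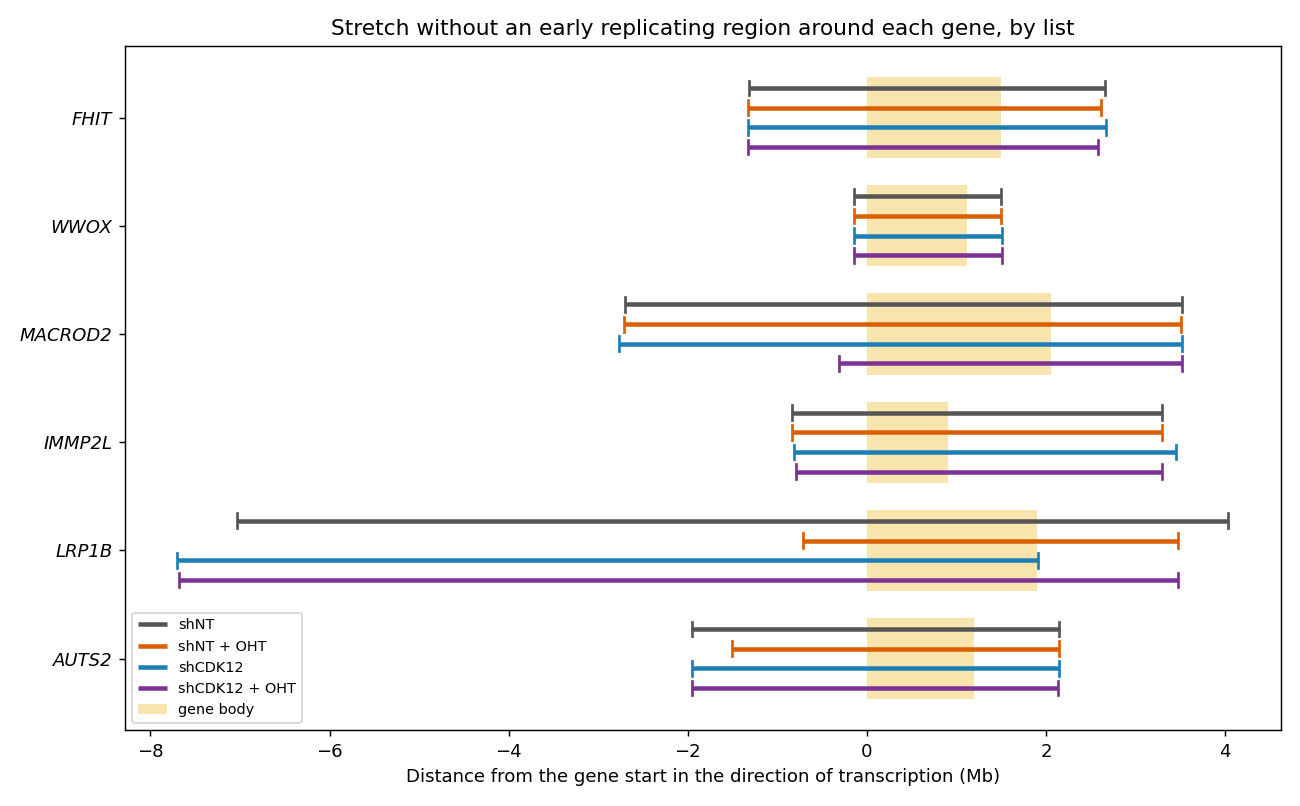
Stretch without a region around each gene in the 4 lists, by distance from the gene start in Mb, with the gene body shaded. Bars end at the nearest region on each side. The bars of WWOX are 1.64 to 1.65 Mb long, and those of LRP1B 4.19 to 11.16 Mb.

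In shNT the 6 stretches summed to 31.12 Mb, with a median of 4.11 Mb, while the median of all 3875 region-free stretches of that list was 121.6 kb. In the other lists, in the same order, the sums were 23.78, 29.90 and 28.70 Mb and the medians 4.03, 4.18 and 3.99 Mb. The lower sum of shNT + OHT came mostly from LRP1B. Because a long gene can only fit in a long stretch, the comparison with all stretches shows nothing particular to these genes. There were 410 stretches at least as long as that of WWOX, the shortest of the 6, in shNT, and they made up 57.5% of the span. In the other lists there were 390 (51.9%), 394 (54.9%) and 380 (53.1%).

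**Figure D2:**
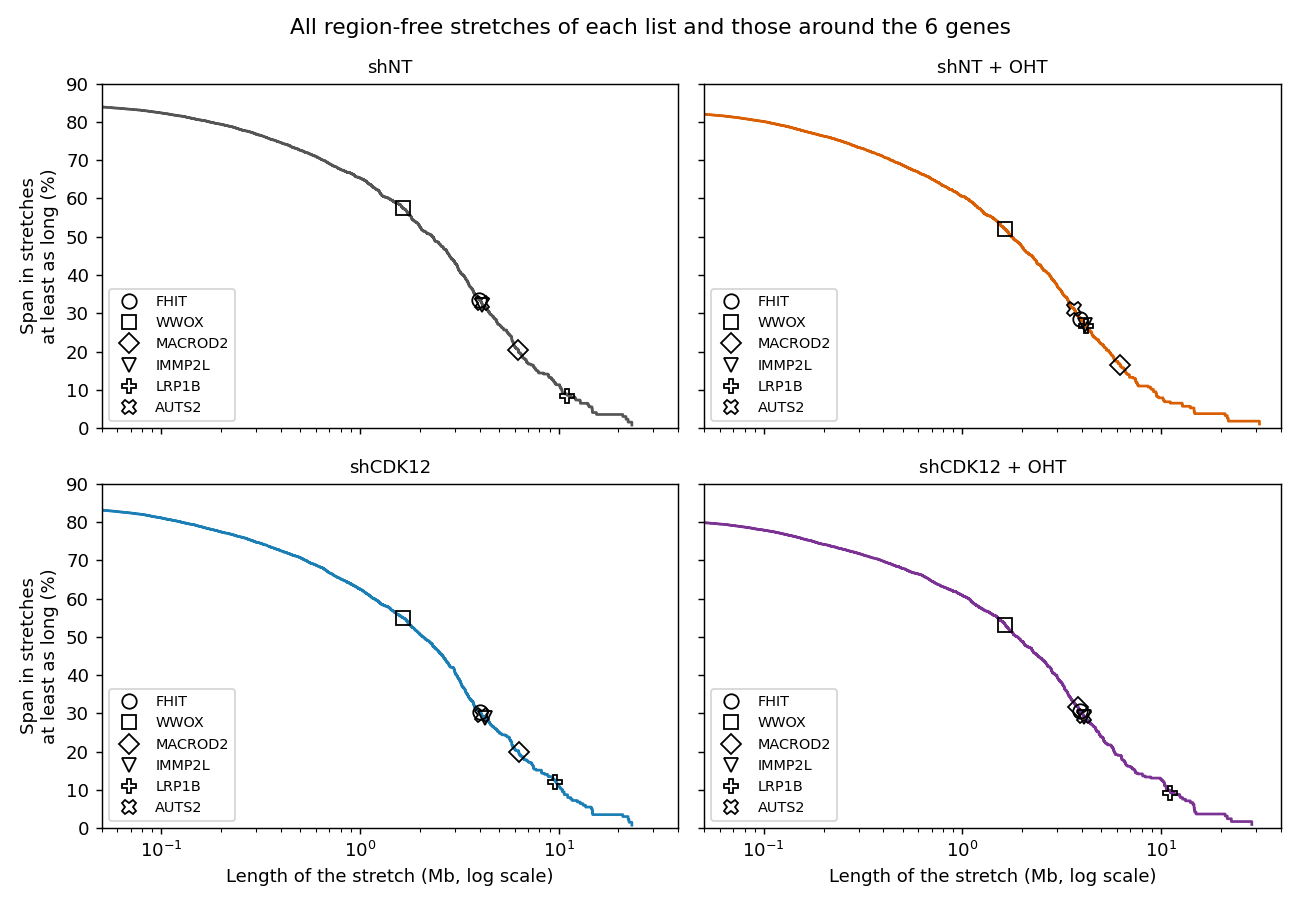
Percent of the span that lies in region-free stretches of at least a given length (Mb, log scale), for each list, with the stretches of the 6 genes marked. WWOX sits at 51.9% to 57.5%, and in shNT MACROD2 and LRP1B sit at 20.5% and 8.51%.

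FHIT, the gene of the most studied fragile site, lay in a stretch of 3978.4 kb in shNT, 3934.0 kb in shNT + OHT, 3995.6 kb in shCDK12 and 3906.0 kb in shCDK12 + OHT. On the upstream side the nearest region was present in all 4 lists, 1315.7 to 1330.5 kb from the gene start. Downstream it lay 1160.6 kb away in shNT and 1165.4 kb in shCDK12. Both lists with OHT had an additional region slightly nearer, 26.0 kb wide and 1108.6 kb away in shNT + OHT and 73.6 kb wide and 1073.4 kb away in shCDK12 + OHT. These regions overlapped each other and no region of the lists without OHT, and they scored above 1.46% and 24.8% of their lists.

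WWOX had the shortest stretch of the 6 genes in each list. It measured 1637.6 kb in shNT, 1646.4 kb in shNT + OHT, 1654.4 kb in shCDK12 and 1647.6 kb in shCDK12 + OHT, and the upstream limit was the narrow region described above. Downstream, a region 81.6, 76.0, 51.2 and 62.8 kb wide began 380.6 to 397.0 kb past the gene. That region was the narrowest and farthest in shCDK12, where it held 14.6 reads per kb, against 26.8, 76.0 and 31.5 in shNT, shNT + OHT and shCDK12 + OHT. Measured by rank, it had more reads per kb than 61.3%, 70.3%, 36.2% and 46.3% of regions.

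MACROD2 lay in stretches of 6220.8, 6218.8, 6284.8 and 3820.4 kb, the first 3 of which were the longest of chromosome 20 in their lists. The stretch of shCDK12 + OHT was the shortest. The difference came from 1 region of 52.0 kb (13617601 to 13669600, 1117 reads) that lay 306.5 kb upstream of the gene start and was absent from the other 3 lists. Its score was above that of 8.23% of its list and its 21.5 reads per kb above those of 4.80%. The downstream neighbour of MACROD2 was present in all lists, 1449.4 to 1462.2 kb from the gene. It was 17.2 kb wide in shCDK12 and 69.6 to 78.4 kb in the others.

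IMMP2L lay in a stretch of 4124.4 kb in shNT, 4132.4 kb in shNT + OHT, 4269.2 kb in shCDK12 and 4089.6 kb in shCDK12 + OHT. Its upstream neighbour was present in every list, 795.4 to 839.4 kb from the gene start. This region was 50, 42.8, 70.0 and 98.0 kb wide, so it was wider with silencing both without and with OHT. The downstream region that lay 2392.3 to 2394.7 kb away in 3 lists was missing in shCDK12, where the next one was 2553.1 kb away.

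LRP1B varied most. Its stretch was 11064.0 kb in shNT, 4194.4 kb in shNT + OHT, 9607.2 kb in shCDK12 and 11156.0 kb in shCDK12 + OHT. In shNT + OHT it was shortened upstream by a region of 34.4 kb (143608001 to 143642400, 1234 reads), 718.7 kb from the gene start and absent from the other 3 lists, where the nearest upstream region lay 7033.1 to 7697.9 kb away. The score of this region was above that of 18.4% of its list. In shCDK12 the stretch ended 9.0 kb from the gene, at the region of 5.2 kb named above. In all, 3 low-scoring regions of shCDK12, of 23.2, 2.0 and 5.2 kb, lay inside the stretch of shNT, all downstream, and scored above 3.66%, 5.57% and 11.9% of the list. The stretch was longest in shCDK12 + OHT although 2 of its regions, 46.8 and 57.2 kb wide, lay downstream inside the stretch of shNT, because the region of 42.0 kb that ended the shNT stretch upstream was in no other list. That region of shNT was itself low-scoring, above 2.92% of its list.

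AUTS2 lay in a stretch of 4094.8 kb in shNT, 4093.2 kb in shCDK12 and 4082.0 kb in shCDK12 + OHT, and of 3651.6 kb in shNT + OHT. The upstream limit was a single 400 bp window in each list. It was the same window in 3 lists, 1950.7 kb from the gene start, with 67 to 95 reads. In shNT + OHT it was another one, 1502.3 kb away with 102 reads. The downstream neighbour was in all lists, 937.3 to 955.3 kb away and 48.4 to 73.2 kb wide.

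A stretch was counted as interrupted when the other list held a whole region inside it. With OHT in shNT cells, 3 of the 6 shNT stretches were interrupted (FHIT, LRP1B and AUTS2), against 48.8% of the 410 long stretches of shNT. In the other direction 0 of 6 were, against 5.90% of the 390 of shNT + OHT. Silencing without OHT interrupted 1 of 6 (LRP1B, background 40.2%), and 2 of 6 stretches of shCDK12 held a region of shNT (IMMP2L and LRP1B, background 21.6%). With OHT in shCDK12 cells, 3 of 6 were interrupted (FHIT, MACROD2 and IMMP2L, background 35.8%), and 1 of 6 in the other direction (LRP1B, background 27.6%). Silencing with OHT interrupted 1 of 6 (MACROD2, background 31.0%), and 2 of 6 stretches of shCDK12 + OHT held a region of shNT + OHT (LRP1B and AUTS2, background 37.6%). With 6 genes, 1 gene more or less changes these shares by much, and they cannot be set apart from the background of other long stretches. That background was every stretch at least as long as that of WWOX in the same list. It was not matched to the longer stretches of the other genes, which have more room for a region. The comparisons share lists and are not independent of each other.

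The stretches were bounded by 12 regions in each list. Their median width was 62.4, 40, 38 and 60 kb in that order, against 74.4, 60.8, 56.0 and 71.2 kb for all regions. Median read density was 19.1, 38.9, 14.7 and 31.3 reads per kb, against 22.3, 52.4, 17.2 and 33.1. Scores below the median of the list were found in 8, 10, 9 and 9 of the 12. A region of all 3 other lists overlapped 9, 6, 9 and 8 of the 12, against 90.6%, 71.8%, 76.3% and 70.9% of all regions. Regions at the edges of other long stretches were not measured. These contrasts with all regions are therefore not shown to be particular to the 6 genes. The score ranks include the narrow upstream regions of WWOX and AUTS2, 2 in each list, of which 6 of 8 had the ungraded score of 1000.

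**Figure D3:**
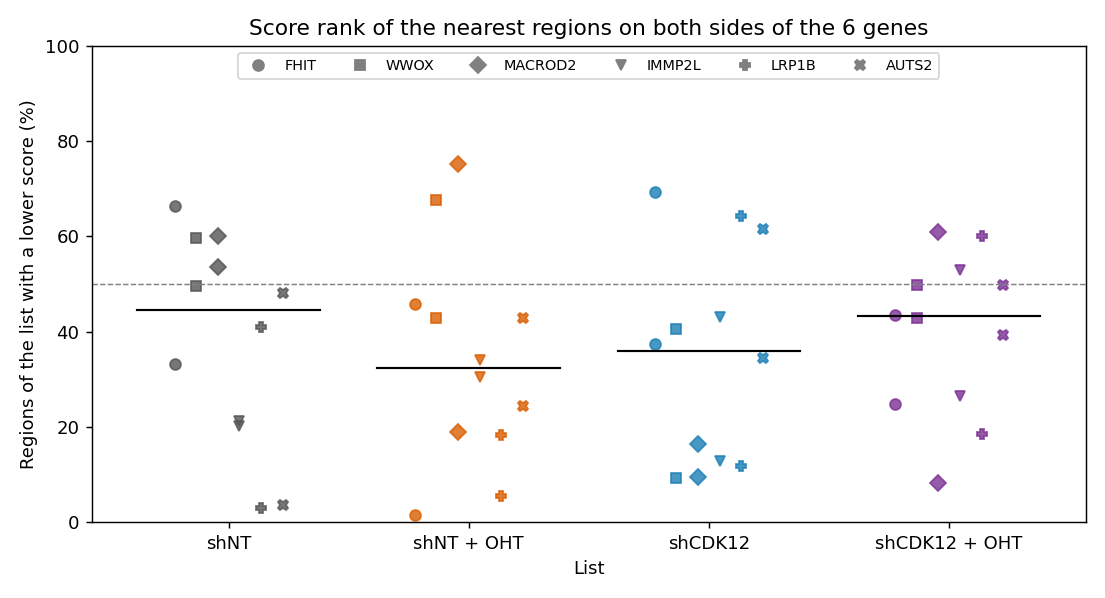
Score rank of the regions next to the 6 genes, as the percent of regions of the same list with a lower score, by list. Each point is 1 region, the marker gives the gene, black lines are medians (44.5, 32.3, 35.9 and 43.2%) and the dashed line is the median of a list.

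Pooled over the 12 sides of the 6 genes, the covered share 200 to 500 kb from the gene was 2.27%, 2.11%, 1.42% and 3.19%. At 500 to 1000 kb it was 2.53% to 3.59%, and at 1000 to 2000 kb 7.56% to 9.97%. At 2000 to 3000 kb it was 20.8%, 23.5%, 19.4% and 26.3%, above the value of the whole span in each list. In that last bin 8 or 9 of the 12 sides held a region. The pooled values came mainly from FHIT, WWOX and AUTS2, which were covered to 26.5%, 33.0% and 47.6% there in shNT. MACROD2, IMMP2L and LRP1B were covered to 6.94%, 7.36% and 3.20%, and all 3 stayed below the value of the whole span in each list. The closest was IMMP2L in shCDK12 + OHT, at 18.7% against 18.9%. Distances were counted outward from gene bodies without a region, and the surroundings of other empty windows were not measured. The rise with distance is therefore not shown to be particular to these genes.

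**Figure D4:**
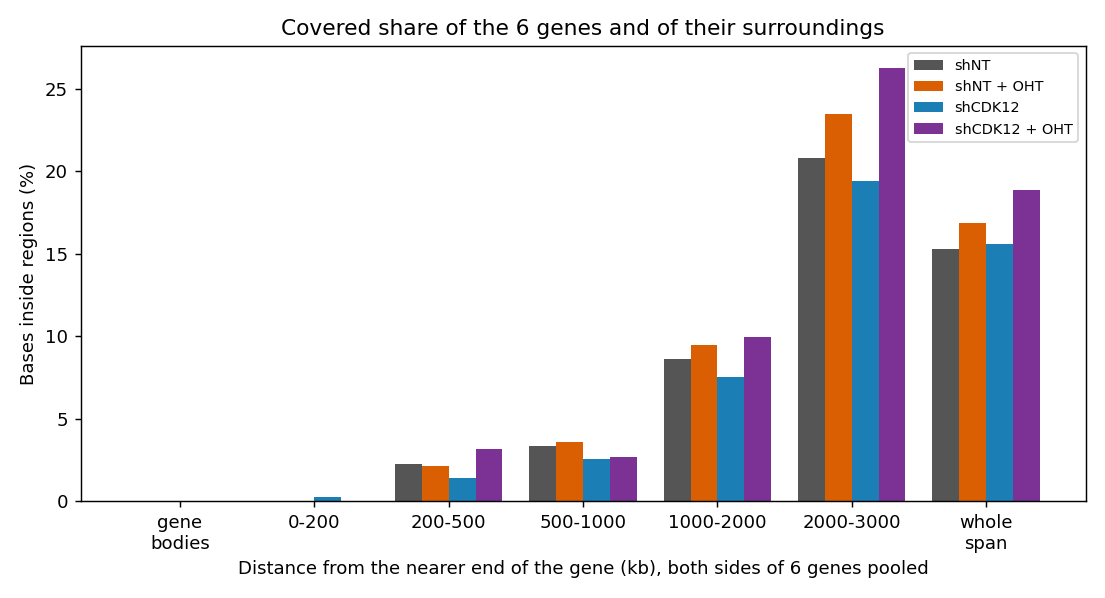
Percent of bases inside regions in the 6 gene bodies, in bins of distance from the gene (kb, both sides pooled) and over the whole span, for the 4 lists. All bars are at 0 in the gene bodies, at most 0.233% within 200 kb and 19.4% to 26.3% at 2000 to 3000 kb.

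The sides of the genes were not alike. Within 3 Mb, each of the 6 genes had more covered sequence downstream than upstream, in each of the 4 lists. In sum this was 1091.5 kb upstream against 2715.7 kb downstream in shNT, and 1205.5 against 3044.1, 983.7 against 2456.5 and 1188.4 against 3441.4 kb in the other lists. FHIT contributed 207.1 kb upstream and 956.6 kb downstream in shNT, and AUTS2 320.5 and 680.3 kb. LRP1B had none upstream in shNT and 64.0 kb downstream. Within 1 Mb the contrast was not seen in every list: downstream exceeded upstream at 2 of 6 genes in shNT, shNT + OHT and shCDK12 + OHT and at 3 of 6 in shCDK12. Upstream exceeded downstream at 1, 2, 1 and 2 genes, and the remaining 3, 2, 2 and 2 had no region on either side. The sums within 1 Mb were 50.8 kb upstream and 232.0 kb downstream in shNT and 95.2 and 196.7 kb in shNT + OHT, but nearly equal in shCDK12 (103.2 and 105.6 kb) and reversed in shCDK12 + OHT (150.4 and 125.5 kb). The contrast was noticed in the data and was not tested.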

How the data were processed

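EdU-HU-seq of 12 U2OS-MycER samples was deposited as 4 region lists, 1 per condition, on the merged replicates. The submitters' processing notes name BWA 0.6.2, SAMtools and SICER, and the builds hg19 and mm10, without roles. Caller settings, a control library and duplicate removal are not given in the sources used here. Per the file headers, each region has a deposited read count (a whole number, not scaled to library size) and a deposited score whose scale is not stated. Region limits lie on a 400 bp grid. Positions are hg19, counted from 1. The lists reached past the hg38 end on 13 of 23 chromosomes, for example at 243159200 on chromosome 2 against 242193529. The hg38 genome was therefore not read by position, and the sequence of the regions is not shown.

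Gene limits were taken as given in hg19. Their lengths differed by at most 0.14% from the same genes in the GENCODE annotation of hg38, which supplied the strands. Regions on chromosomes 1 to 22 and X were used, with 17408667 reads in regions for shNT and 50435058 with OHT, and 13310443 for shCDK12 and 28776181 with OHT. The span of a chromosome ran from the first to the last region of any list. A region was shared when it overlapped another by at least 1 bp. Intervals and counting SE cover counting error only. A further locus is not reported here. No test between conditions was possible with 1 merged list each.

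All 6 genes are named, with each region in their flanks, and the bounding regions were added after their values were seen. The genes and measures were chosen with earlier results of these data known. Alternatives covered joining, width, score, list size, flank size and the overlap rule. The functions were tested on simulated data. The software was pandas 2.3.3 with numpy 2.4.6 and scipy 1.17.1 under Python 3.11.15, and figures were drawn with matplotlib 3.10.9.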

Additional observations from a re-analysis of the deposited data

Results flagged for a closer look

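Results were singled out where the same contrast moved a value in opposite directions in 2 backgrounds. Each condition has 1 merged list, so these differences were not tested. With OHT, the stretch of LRP1B was shorter in shNT cells (-6869.6 kb) and longer in shCDK12 cells (1548.8 kb). The second value turned negative with regions of at least 10 kb (-47.2 kb), equal list sizes (-24.8 kb) and the common minimum score (-573.2 kb), so the opposite direction was lost in 3 of the 4 alternatives. The other two such changes with OHT were smaller, at WWOX (8.8 kb in shNT cells and -6.8 kb in shCDK12 cells) and IMMP2L (8.0 and -179.6 kb). At WWOX both signs turned with regions of at least 10 kb (-1718.8 and 1733.2 kb).

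Silencing of CDK12 moved the summed stretches by -1.22 Mb without OHT and by 4.92 Mb with OHT. With equal list sizes both changes were positive (4.27 and 7.94 Mb), as they were with the common minimum score (4.27 and 4.34 Mb), so the opposite direction was lost under both. Of the 4.27 Mb, 2.39 Mb came from WWOX, and most of the rest from MACROD2 (0.99 Mb) and LRP1B (0.67 Mb). At WWOX the window of shCDK12 was removed for its score of 88.7, while windows with the ungraded score of 1000 were kept. At LRP1B the values were -1456.8 kb without OHT and 6961.6 kb with OHT, where the region that shNT + OHT alone held upstream of the gene set the value. The first value became 139.2 kb with regions of at least 10 kb and 665.2 kb with equal list sizes or the common score. At MACROD2 they were 64.0 and -2398.4 kb, at IMMP2L 144.8 and -42.8 kb, at AUTS2 -1.6 and 430.4 kb and at FHIT 17.2 and -28.0 kb. Opposite directions were lost at MACROD2 with equal list sizes (986.4 and 652.0 kb) and at AUTS2 with regions of at least 10 kb (-274.4 and -24.8 kb). The log2 read ratio of the place upstream of WWOX, relative to the median, was -0.27 without OHT and 0.10 with OHT, both within 2 counting SE of 0. The first value sets a count over 0.8 kb in shNT against 0.4 kb in shCDK12, so its sign does not give a change in density.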

How the results depend on the processing

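The share of the gene bodies covered stayed at 0% in all lists under each alternative run for it: joining across 10 kb, a width of at least 10 kb, equal list sizes, a common minimum score and the plain mean of the genes. Joining and a half-overlap rule moved no result. The summed stretches stayed within 1.5 times under the 4 alternatives run for them, but the sign of their change with silencing without OHT turned from -1.22 to 4.27 Mb with equal list sizes and with the common score. These alternatives were added after seeing the data, as were those for interruptions. Of 160 alternative values, 114 stayed and 46 moved.

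With regions of at least 10 kb only, the flanks held 0 regions and 0% coverage in each list, shCDK12 lost its region absent from shNT and from shCDK12 + OHT (0 each), and shNT stretches interrupted by shCDK12 numbered 3. Flanks of 100 kb held 0 regions and 0% in shNT, shNT + OHT and shCDK12 + OHT, and 1 region and 0.433% in shCDK12. Flanks of 500 kb held 2 regions in shNT (1.37%) and in shNT + OHT (1.27%), 3 in shCDK12 + OHT (1.92%), and 0.947% was covered in shCDK12.

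Under either the 3865 top-scoring regions per list or a common minimum score of 146, shCDK12 had 0 regions and 0% in the flanks and so 0 regions absent from shNT or from shCDK12 + OHT. The WWOX region then counted as absent from shCDK12, 1 for shNT and 1 for shCDK12 + OHT. Interruptions by shCDK12 fell to 0 for shNT and 0 for shCDK12 + OHT stretches, and shNT interrupted 4 of shCDK12. With the common score, interruptions by shCDK12 + OHT were 3 for shNT + OHT and 5 for shCDK12 stretches. The alternatives remove regions by construction, and the scale of the scores is not stated. They removed the WWOX window of shCDK12 (score 88.7) but kept windows with the ungraded score of 1000, so these counts depend in part on that score.

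Leaving out replicates was not run, because each list merges them. No paired analysis was possible because the lists carry no replicate.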
